A study of Mus musculus with 8 samples.

Results

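Cells with transcripts of haematopoietic stem cell (HSC) genes, and with no captured transcript of Vwf, were examined in the bone marrow of mice of 4 ages. Members were chosen by their own counts of unique molecular identifiers (UMIs, each standing for 1 captured transcript molecule): at least 1 UMI in at least 2 of Hlf, Procr and Mecom, and none for Flt3, Pf4 or Vwf, among cells with 1000 or more UMIs and under 10% of UMIs in mitochondrial genes. The rule found 2275 such cells among 46159 cells kept, or 4.93%, and a further 667 cells passed the same gate with at least 1 Vwf UMI. The former are called Vwf-negative gate cells here and the latter Vwf-positive gate cells.

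Von Willebrand factor, the product of Vwf, is a blood clotting protein of platelets, megakaryocytes and endothelium. In mouse marrow it also marks a set of HSC that feeds the platelet lineage, whereas HSC without it are known for a more lymphoid or balanced output. Hlf and Mecom encode transcription factors that maintain HSC, and Procr encodes the endothelial protein C receptor, a surface marker of HSC. Flt3 encodes a cytokine receptor of multipotent progenitors, and Pf4 a granule protein of megakaryocytes. HSC grow in number with age, and the pool shifts from lymphoid to platelet and myeloid output.

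All 8 animals were wild-type mice, each a single library of lineage-negative, c-Kit+ marrow cells, with 1 male and 1 female at 14 weeks (young), 50 weeks (middle-aged), 78 weeks for the male and 79 weeks for the female (old, written 78-79 weeks) and 95 weeks (very old). The sort removes mature blood cells and keeps stem cells with many kinds of progenitor, so the gate cells are a minority that was found by transcripts alone. Libraries held between 83062003 and 150135029 UMIs in 6459 to 8866 barcodes. By the labels, both 95-week libraries belong to a separate series of libraries, so that effects of that series and of very old age cannot be told apart. No barcode was a member in more than 1 library, and 31 member barcodes were also a cell of another library.

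The share of all cells that were Vwf-negative gate cells was 2.33% in the young male and 2.93% in the young female. It was 7.68% and 4.82% at 50 weeks, 8.20% and 4.17% at 78-79 weeks, and 6.17% and 4.21% at 95 weeks, male first. Both young mice lay under all 6 older mice. Vwf-positive gate cells were rarer at every age, with 0.176% and 0.184% of cells in the young mice and between 0.964% and 3.56% in the older ones. Of all gate cells, those without Vwf made up 93.0% and 94.1% at 14 weeks, 83.3% and 82.3% at 50 weeks, 69.7% and 73.0% at 78-79 weeks, and 67.1% and 81.4% at 95 weeks. Vwf-negative cells were thus the majority in every mouse, and the lowest shares were in the males of 95 and 78 weeks. These shares come from the rule itself and are a description without a test.

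The threshold on Vwf was a matter of 1 UMI for many cells. Among the Vwf-positive gate cells just outside it, between 51.9% and 84.6% per mouse had a single Vwf UMI. In granulocyte precursors of the same libraries (Mpo of 3 UMIs or more, Elane of 1 or more, none of the 3 gate genes), 0.728% to 3.80% of cells had a Vwf UMI. In erythroid precursors (Car1 of 3 or more, Klf1 of 1 or more, likewise none of the 3 gate genes), 6.06% to 11.9% of cells did. Median depth was 7719 to 12093 UMIs in Vwf-negative gate cells, 15619 to 25623 in these granulocyte precursors and 15687 to 35895.5 in these erythroid precursors. A cell without a Vwf UMI is therefore a cell in which none was captured at this depth. The positive side has a limit too. In the young male and female 9 of 128 and 13 of 220 gate cells had a Vwf UMI, a single one in 77.8% and 84.6% of these. Of their erythroid precursors 7.31% and 11.9% had one. Whether the young Vwf-positive gate cells are a kind of cell or hold background RNA was not tested.

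Within the rule, the Vwf-negative gate cells were not uniform, and their make-up differed between ages. Hlf was detected in 94.8% to 98.3% of them per mouse, Mecom in 74.8% to 85.7% and Procr in 38.6% to 67.1%. All 3 genes were detected in 18.5% and 18.4% of the cells of the young male and female. The share was 36.8% and 32.1% at 50 weeks, 42.8% and 32.5% at 78-79 weeks, and 38.2% and 21.9% at 95 weeks. Cells with just 2 of the 3 genes, the ones nearest to the edge of the gate, were thus most common in the young mice. Procr itself stood at 40.1 and 35.8 CPM (normalised counts) in the young mice against 72.6 and 54.1 CPM at 50 weeks, 121 and 98.3 CPM at 78-79 weeks and 120 and 62.1 CPM at 95 weeks. CPM is a gene's share of the UMIs summed over the cells of a mouse, here scaled by edgeR's trimmed mean of M values.

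**Figure D1:**
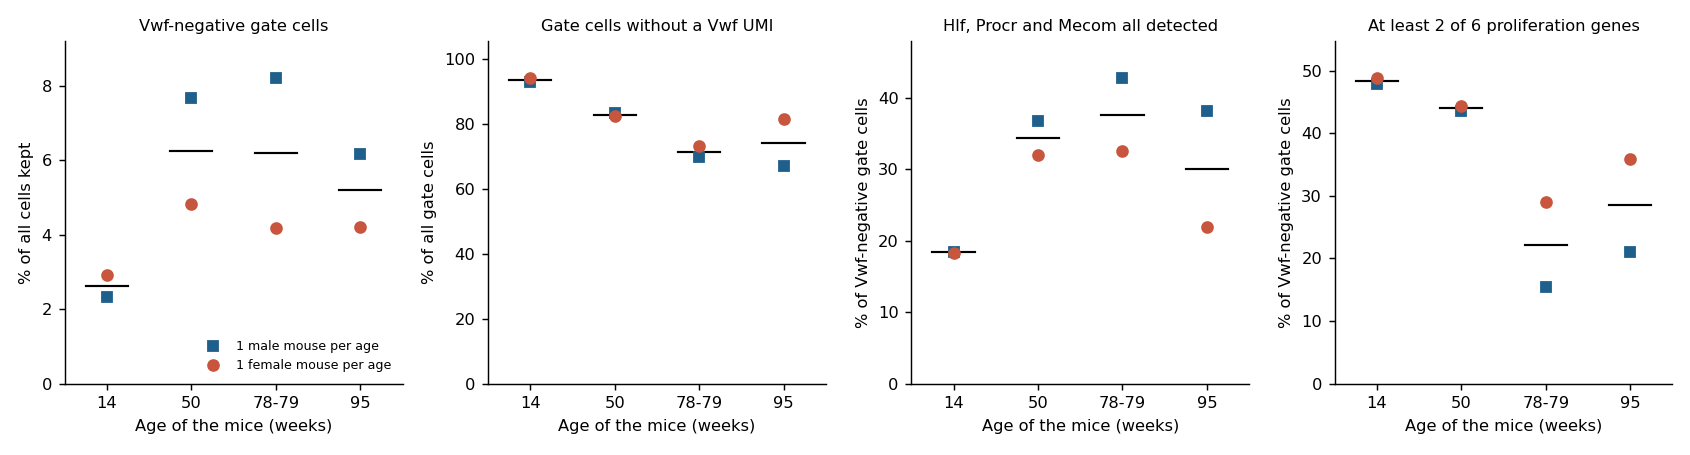
The 4 panels give, for each mouse by age in weeks, the share of Vwf-negative gate cells among all cells, the share of gate cells without a Vwf UMI, the share of Vwf-negative gate cells with Hlf, Procr and Mecom all detected, and the share with at least 2 of 6 proliferation genes. Squares are males, circles females and bars the mean of 2 mice; the last share is 47.9% and 48.8% in the young mice and 15.4% and 29.0% at 78-79 weeks.

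The label of stem cells was checked with genes that the gate did not use. Over 20 further HSC markers, the summed level was 1519 to 3363 CPM of all UMIs in Vwf-negative gate cells. It was 344 to 573 in granulocyte precursors and 353 to 598 in erythroid precursors, so the mice of the groups did not overlap. Both precursor groups were chosen without the 3 gate genes, so part of this separation was built into the choice of cells. Multipotent progenitors outside the gate were not compared, so these values cannot tell the gate cells from them. Ly6a, the surface antigen Sca-1 of the usual HSC sort, was at 54.1 to 156 CPM of all UMIs in the gate cells and at 0.947 to 3.63 in granulocyte precursors. Markers of later cells were looked for too. Cd34, a surface protein of progenitors, was detected in 28.4% to 64.5% of Vwf-negative gate cells when each cell was thinned to 3000 UMIs, against 1.51% to 5.50% of thinned erythroid precursors. Cd48, absent from the surface of the purest HSC, was detected in 5.38% to 21.8% against 6.78% to 17.9%. These ranges overlap, so that this measure alone cannot tell its share from background RNA. Against the Vwf-positive gate cells of the same libraries, Cd48 was higher in 8 of 8 mice, as given below. Mpo, the myeloperoxidase of granulocyte precursors, was detected in 16.6% to 52.7% of thinned gate cells. The range was 5.53% to 24.5% in thinned erythroid precursors, which overlaps as well. By level the ranges lay apart, at 542 to 1748 CPM of all UMIs in gate cells and 70.6 to 220 in erythroid precursors. So did the sums of 18 myeloid genes, at 4002 to 7757 against 833 to 1714 CPM of all UMIs. The rule thus took cells with HSC markers, part of which also held Cd34 transcripts. Summed per mouse, myeloid genes also took a larger share of their UMIs than of the UMIs of erythroid precursors. Gate cells were shallower than these precursors, as given above. The part of depth and of background RNA in this difference was not tested. The gate cells are named by the rule below. Genes of B, T and natural killer cells summed to 32.2 to 41.0 CPM with 6 of 15 at 0 in every mouse, and the endothelial gene Cdh5 was at 0 throughout.

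To ask what changed with age, UMIs were summed over the Vwf-negative gate cells of each mouse and fitted with age and sex over 11125 genes, with the mouse as replicate. A gene was called at an adjusted p under 0.05 (edgeR's quasi-likelihood test, Benjamini-Hochberg adjustment over all genes tested). Between 14 and 78-79 weeks 476 genes were called, 4.28% of those tested, of which 358 rose (3.22%) and 118 fell (1.06%). The split was 230 up and 238 down without the 79-week female, 325 and 197 without the young female, and 88 and 1 without the 78-week male. Between 14 and 95 weeks 150 were called (1.35%), 127 up (1.14%) and 23 down (0.207%), and between 14 and 50 weeks 16 (0.144%), 11 up (0.0989%) and 5 down (0.0449%). These 3 comparisons share the 2 young mice. Between 50 and 78-79 weeks 870 genes were called (7.82%), 429 up (3.86%) and 441 down (3.96%). That split became 62 up and 174 down with DESeq2, 25 and 0 with 119 cells per mouse, 506 and 944 without a filter on low counts, 247 and 461 without the 50-week female, and 281 and 435 without the 79-week female. Of the 429 rises from 50 to 78-79 weeks, 15.6% were also among the rises from 14 to 95 weeks, and these 67 genes were 52.8% of the 127. The 2 comparisons set different mice against each other. Both came from 1 fit of all 8 mice, with a shared sex term and dispersion, so they are not independent. Of the falls, 1 gene was shared, or 0.227% of the 441 and 4.35% of the 23. Over all genes tested, falls were 0.207% from 14 to 95 weeks and 3.96% from 50 to 78-79 weeks, so this overlap was near the background.

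Members were fewer in the young mice (119 and 207 cells) than in the older ones (237 to 428), and median depth per cell was 11928 and 11168 UMIs at 14 weeks, 11658 and 12093 at 50 weeks and 7719 to 8278 in the old and very old mice. The part of depth and of the make-up of the gate in the differences with age was not tested, but the gate was narrowed. With all 3 of Hlf, Procr and Mecom required, which left 22 and 38 cells in the young mice, 14 genes were called at 78-79 against 14 weeks, all of them rises. Without the sex term 63 were called, and in cells of at least 2000 UMIs and under 5% mitochondrial UMIs 22.

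The largest rises were of genes known to mark aged HSC. Nupr1, which encodes a stress-induced chromatin protein, stood at 6.13 CPM in the young male and 2.46 in the young female. It reached 85.4 and 43.3 CPM at 50 weeks, 165 and 63.9 at 78-79 weeks, and 174 and 50.8 at 95 weeks. The lowest older mouse was thus above the highest young one, and the gene rose at all 3 ages, by 3.93 ± 0.28 (log2 fold change ± SE, adjusted p = 5.16e-07), 4.72 ± 0.27 (1.16e-08) and 4.63 ± 0.27 (1.59e-08, edgeR). Nupr1 (ENSMUSG00000030717) lies on chromosome 7 from 126623249 to 126630861 of mm10. Thinned to 3000 UMIs per cell, 0.909% and 1.46% of the young cells held a Nupr1 UMI, against 33.0% and 14.9% at 78-79 weeks, and 0.0846% to 0.642% of thinned granulocyte precursors and 0.168% to 2.27% of erythroid precursors did. Nupr1 kept a rise of 3.09 at 78-79 weeks in the cells with all 3 gate genes, again past the threshold.

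Clca3a1, a member of the calcium-activated chloride channel regulator family on chromosome 3 from 144729677 to 144760977, was counted 0 times in the young male and 3 times in the young female, against 164 UMIs in the pair of 78-79 weeks. That is a ratio of 39.3 per UMI sequenced, with an exact 95% interval for counting error from 13.2 to 192. Its level was 30.5 and 18.5 CPM at 78-79 weeks and 20.6 and 9.39 CPM at 95 weeks, and it passed the test at all 3 ages. Plscr2, a phospholipid scramblase gene, rose from 1.11 and 1.76 CPM in the young mice to 41.9 and 31.1 at 78-79 weeks and 32.8 and 27.8 at 95 weeks. The rises were 4.53 ± 0.33 (adjusted p = 2.42e-07) and 4.26 ± 0.34 (1.02e-06, edgeR), and the males and females of the 2 ages lay closer together than for Nupr1.

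Clu, which encodes the secreted chaperone clusterin, was at 0.557 and 1.76 CPM in the young mice and at 32.5 and 19.7 CPM at 78-79 weeks (log2 fold change 4.19 ± 0.45, edgeR adjusted p = 3.03e-05). Sult1a1, a sulfotransferase gene, went from 7.24 and 7.03 CPM to 155 and 103, a rise of 4.10 ± 0.55. Aldh1a1, an aldehyde dehydrogenase of retinoid metabolism, went from 8.91 and 14.1 CPM to 97.8 and 60.9, and Gda, guanine deaminase, from 5.01 and 8.78 to 68.6 and 31.5. Both also rose at 95 weeks, by 2.58 ± 0.30 and 2.51 ± 0.40, and the call of Gda at 95 weeks was kept in 3 of the 8 fits that left out a mouse, with values from 1.58 to 3.74. In none of these genes did a mouse of 78-79 weeks overlap with a young one, which the rule for naming them required. Sult1a1 had the largest error of them and kept its call at 78-79 weeks (edgeR adjusted p = 0.0305) in 4 of the 8 fits that left out a mouse.

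Clec1a, which encodes a C-type lectin-like receptor, rose in every comparison named, but kept its call at 50 against 14 weeks in 4 of the 8 fits that left out a mouse (1.15 to 2.03, lowest without the young male). Its level was 7.24 and 7.38 CPM at 14 weeks, 26.6 and 19.4 at 50 weeks, 97.6 and 50.0 at 78-79 weeks and 59.0 and 28.5 at 95 weeks. The old mice exceeded the middle-aged ones as well, by 1.67 ± 0.18 on the log2 scale (edgeR, adjusted p = 0.000199). Maf, a transcription factor gene of the AP-1 superfamily, rose by 2.76 ± 0.37 at 78-79 weeks, from 2.23 and 3.51 CPM to 27.4 and 15.1, and the unnamed gene model Gm10419 by 3.54 ± 0.36.

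Over a list of 36 genes tied to HSC ageing, which was drawn up with earlier results of these data known, 30 could be tested. Of these 19 rose at 78-79 weeks, 15 at 95 weeks and 4 at 50 weeks, and none fell, beside the backgrounds of 3.22%, 1.14% and 0.0989% of genes called as rises. Leaving out each mouse gave 8 to 26 rises at 78-79 weeks, with 9 without the young male and 8 without the 78-week male, and 8 to 23 at 95 weeks, with 8 without the young male and 23 without the 95-week female. At 50 weeks the range was 2 to 12, with 2 without the young male and 2 without the 50-week male, 10 without the young female, and 11 and 12 without the male and the female of 95 weeks. The filter on low counts was applied anew in each of these fits, here and for the other lists. They tested 11373 to 11581 genes, and 33 of this list without the young male, so their counts are not out of 30. The list's median log2 fold change was 1.66 at 50 weeks, 2.59 at 78-79 weeks and 2.13 at 95 weeks, and that of all genes tested was 0.02, 0.01 and 0.01. Selp, the adhesion molecule P-selectin, was at 3.90 and 12.6 CPM in the young mice and at 34.0 and 22.7 at 78-79 weeks without passing the test (1.65 ± 0.43, edgeR adjusted p = 0.0736). Without the cells that held proliferation genes, 17 of the 30 rose at 78-79 weeks (background 1.03%), and with all 3 gate genes required 7 of 25 (background 0.163%).

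The older mice were not alike. At 78-79 weeks 27 of the 30 ageing genes were higher in the male than in the female, and at 95 weeks 28 were, against 11 at 14 weeks. Their median male-to-female difference on the log2(CPM + 1) scale was 0.62 at 78-79 weeks and 1.26 at 95 weeks. With 1 mouse of each sex per age, sex and mouse cannot be told apart. Leaving out the young female moved the count at 78-79 weeks little, to 522 genes, whereas leaving out the young male gave 47 and leaving out the 78-week male 89.

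**Figure D2:**
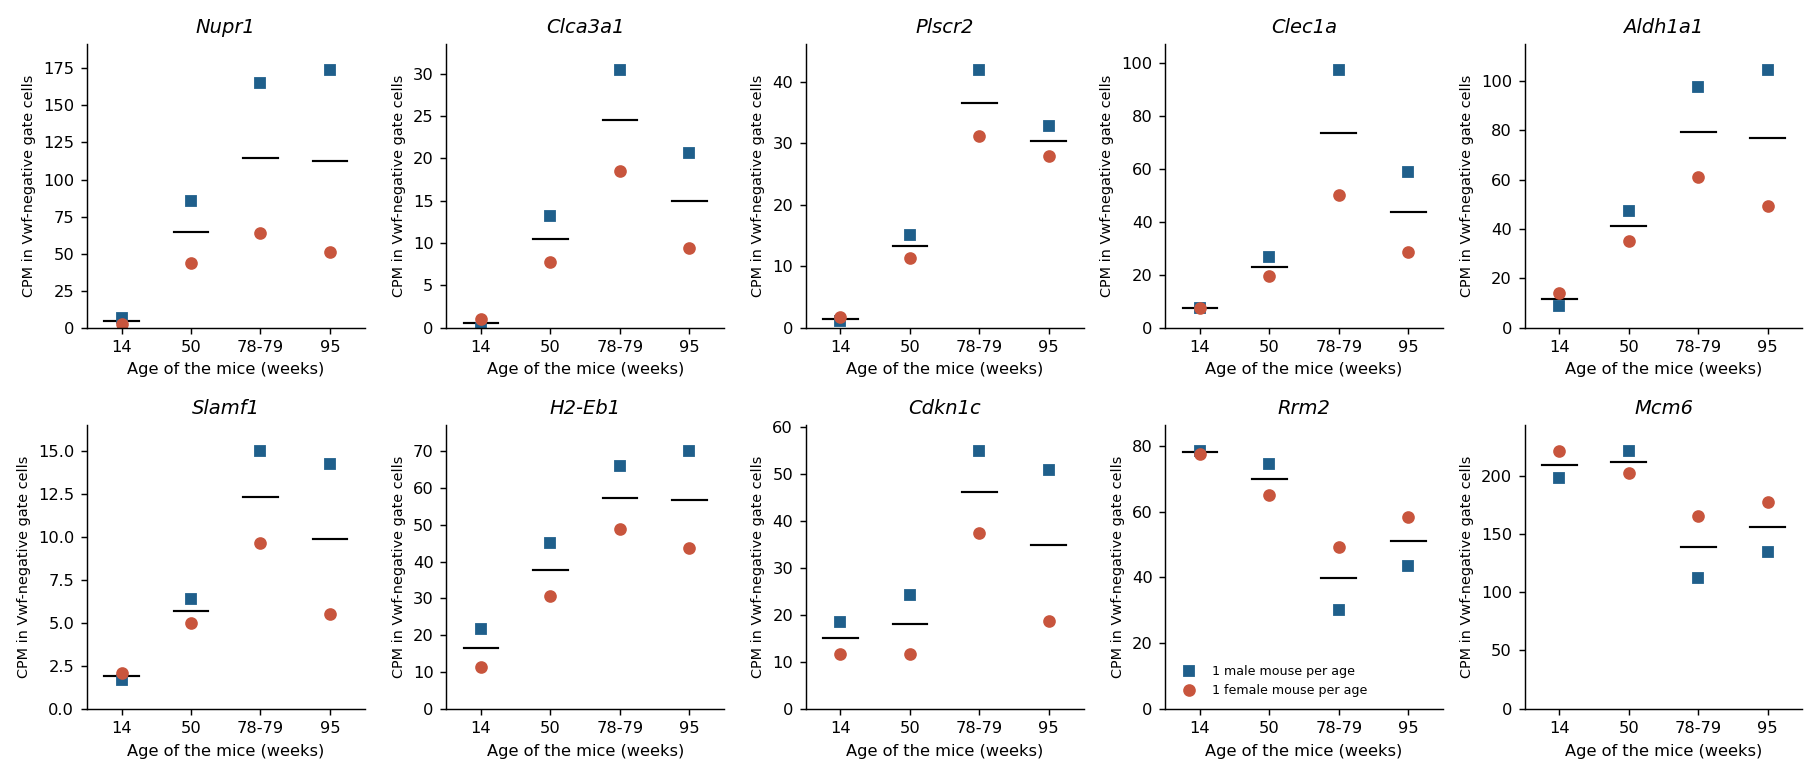
CPM of 10 genes in the Vwf-negative gate cells of each mouse (vertical axis) by age in weeks, with males as squares, females as circles and bars for the mean of 2 mice. The 8 rising genes are lowest in the young mice, with Nupr1 at 2.46 and 6.13 CPM, and Rrm2 and Mcm6 are lowest in the male of 78 weeks, at 30.2 and 112 CPM.

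Markers of HSC that the gate did not use rose along with these genes. Of 20 tested, 13 rose at 78-79 weeks (background 3.22%) and none fell, 8 rose at 95 weeks (background 1.14%) and none passed the test at 50 weeks. Leaving out each mouse gave 3 to 14 rises at 78-79 weeks, with 3 without the young male, 5 without the 78-week male and 8 without the 79-week female. At 95 weeks it gave 0 to 10, with none without the young male and 2 without the 95-week male, and at 50 weeks 0 to 3. Slamf1, the surface receptor CD150 by which HSC are commonly sorted, stood at 1.67 and 2.11 CPM in the young mice, 6.41 and 4.998 at 50 weeks, 15.0 and 9.66 at 78-79 weeks and 14.2 and 5.50 at 95 weeks. It rose by 2.56 ± 0.46 (edgeR, adjusted p = 0.0042) and 2.22 ± 0.47 (0.0203) at the later 2 ages. Thinned to equal depth it was found in 0.909% and 0.488% of young cells and 6.11% and 2.55% at 78-79 weeks, against 1.998% and 1.79% of the erythroid precursors of the young mice and 1.99% and 1.74% of those at 78-79 weeks. In both young mice the share was thus under that of their own erythroid precursors. Hoxb5, a homeobox gene restricted to long-term HSC, had 0 and 2.46 CPM in the young mice and 11.2 and 9.66 at 78-79 weeks.

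Mllt3, a chromatin reader that sustains HSC, rose by 1.45 ± 0.24 at 78-79 weeks, Fgd5 by 2.03 ± 0.37, Esam, a junction protein on HSC, by 1.45 ± 0.21 and Pdzk1ip1 by 1.66 ± 0.24 (edgeR adjusted p = 0.011, 0.0044, 0.000587 and 0.00835). Meis1, a homeobox cofactor, rose by 0.46 ± 0.13 and kept its call in 1 of the 8 fits that left out a mouse. Hoxa9 did not pass the test, at 0.03 ± 0.15. Of 14 tested Hox genes and cofactors, 7 rose at 78-79 weeks (background 3.22%) and 4 at 95 weeks (background 1.14%). Leaving out a mouse gave 1 to 7 and 0 to 5 rises, with 1 and 0 without the young male. The count at 78-79 weeks was 2 without the 78-week male and 4 without the young female. That at 95 weeks was 0 without the 95-week male, 1 without the 79-week female and 2 without the 78-week male or either 50-week mouse. The share of cells with all 3 gate genes moved with age in the same mice, and in those cells alone none of 19 HSC markers or 11 Hox genes was called at 78-79 weeks, with medians of 0.59 and 0.28. Without the cells holding proliferation genes 5 of 20 HSC markers rose (background 1.03%).

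Genes of antigen presentation were among the rises at all 3 ages. MHC class II molecules present peptides to T cells and are known to be made by HSC. H2-Eb1, a class II beta chain, was at 21.7 and 11.2 CPM in the young mice, 45.0 and 30.5 at 50 weeks, 66.1 and 48.7 at 78-79 weeks, and 70.1 and 43.7 at 95 weeks. Every older mouse lay above both young ones, with rises of 1.23 ± 0.19 (edgeR adjusted p = 0.0103), 1.84 ± 0.19 (1.69e-05) and 1.82 ± 0.19 (3.58e-05). Thinned, 10.9% and 4.39% of young and 17.6% and 13.2% of old cells held a UMI, and 0.253% to 1.13% of granulocyte precursors did. Cd74, the invariant chain, rose at all 3 ages too, by 0.82 ± 0.16, 1.40 ± 0.16 and 1.09 ± 0.16. With all 3 gate genes required it turned to -0.20 at 50 weeks and -0.01 at 78-79 weeks, and at 50 weeks it kept its call in 3 of the 8 fits that left out a mouse.

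Of 9 class II genes tested, 4 rose at 78-79 weeks (background 3.22%) and 4 at 95 weeks (background 1.14%), H2-Aa by 1.57 ± 0.18 and 1.39 ± 0.18. H2-DMa, which loads peptides, did not pass (0.06 and 0.13). With all 3 gate genes required, no class II gene was called at 78-79 weeks (background 0.163%). Of 15 class I genes 4 rose at 78-79 weeks (background 3.22%), and none without the young male, the young female or the 78-week male, and 1 without the 79-week female. Among the 4, H2-K1 and H2-D1 rose by 0.36 each. B2m, the shared light chain, rose by 0.45 ± 0.09 at 95 weeks. Of 24 interferon response genes 1 rose at 78-79 against 14 weeks (background 3.22%), with a median of 0.47 beside 0.01 over all genes, and none was called at 50 or 95 weeks. Between 50 and 78-79 weeks 4 rose (background 3.86%), and none without the 50-week male, the 50-week female, the 78-week male or the 79-week female.

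Genes of DNA replication fell between 50 and 78-79 weeks. In a set of 6 proliferation genes (Mki67, Top2a, Cdk1, Ccna2, Ccnb1 and Birc5), at least 2 were detected in 47.9% and 48.8% of young Vwf-negative gate cells, 43.6% and 44.3% at 50 weeks, 15.4% and 29.0% at 78-79 weeks, and 20.99% and 35.9% at 95 weeks. These cells were not thinned, and depth fell with age as given above. Over 24 S phase genes, all 24 were lower at 78-79 than at 14 weeks and 7 were called, beside a background of 1.06% called falls. Leaving out each mouse gave 0 to 20 falls, with none without the young male or the 78-week male, 20 without the 79-week female and 10 without either 50-week mouse. Rrm2, a subunit of ribonucleotide reductase, went from 78.5 and 77.6 CPM to 30.2 and 49.2, a fall of 1.01 on the log2 scale (SE 0.19, edgeR adjusted p = 0.00941). The replicative helicase genes Mcm6 and Mcm7 fell by 0.61 and 0.63 and the sliding clamp Pcna by 0.64.

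At 50 weeks the S phase list stood at the young level, with a median of 0.03 and no call, and 11 of 24 fell between 50 and 78-79 weeks (background 3.96%). That count went from 0 to 22 over the fits that left out a mouse, with 0 without the 50-week male, 0 without the 78-week male, 22 without the 79-week female and 7 without either 95-week mouse. At 95 weeks 23 of 24 lay below the young mice with a median of -0.41, and none was called. Of the 10 genes named as the largest falls at 78-79 weeks, Gins2, Cdt1, Pole2, Dscc1 and Rrm2 act in replication and Brip1 is a helicase of DNA repair. Sdf2l1, a chaperone cofactor of the endoplasmic reticulum, fell by 1.18 (SE 0.24), from 137 and 96.6 CPM to 42.9 and 61.3. The others were Nt5dc2, the lectin receptor gene Clec4e and the melanocortin receptor gene Mc5r. Mc5r kept its call in 2 of the 8 fits that left out a mouse (-1.72 to -0.68) and Sdf2l1 in 4 (-1.63 to -0.71).

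E2f1, the transcription factor of the G1 to S transition, fell by 0.90 (SE 0.21), and Cdkn1c, which encodes the cell cycle inhibitor p57, rose. Its level was 18.4 and 11.6 CPM at 14 weeks, 24.3 and 11.7 at 50 weeks, 54.9 and 37.4 at 78-79 weeks, and 50.9 and 18.8 at 95 weeks. The rise was 1.597 ± 0.23 at 78-79 weeks (edgeR, adjusted p = 0.000587) and 1.15 ± 0.24 at 95 weeks (0.0168). When cells with proliferation genes were left out, 131 genes were called in place of 476, none of 22 S phase genes was among the calls (median -0.51), Rrm2 stood at -0.09 and Cdkn1c still rose by 1.29. None of 24 G2/M genes was called in a comparison between ages with all mice, and up to 11 fell when a mouse was left out, at 78-79 against 14 weeks without the 79-week female.

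Immediate-early genes respond within minutes to stimuli including tissue handling. Of 17 tested, 7 rose at 78-79 weeks (background 3.22%) and none was called at 50 or 95 weeks against 14 weeks. Leaving out each mouse gave 1 to 8 rises at 78-79 weeks, with 1 without the young male, 3 without the young female, 3 without the 78-week male and 4 without either 50-week mouse, and at 95 weeks 0 to 2 falls. Jund was at 80.8 and 88.2 CPM in the young mice, 211 and 121 at 78-79 weeks and 77.3 and 59.2 at 95 weeks, and Junb at 39.0 and 29.9, 93.0 and 63.9, and 47.7 and 44.0. The male of 78 weeks was the highest of the 8 for both. The difference between the old and the very old mice was not tested. Nfkbia, the inhibitor of NF-kB, rose by 0.93 ± 0.16 at 78-79 weeks.

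Few lineage genes passed the test with age. None of 18 myeloid genes was called in the comparisons with the young mice, where 12 to 13 of them lay below the young level, and without the young female 5, 6 and 6 fell at 50, 78-79 and 95 weeks. Mpo was at 1708 and 1157 CPM in the young and 791 and 801 in the old pair (-0.86 ± 0.38, edgeR adjusted p = 0.325). Of 15 platelet and megakaryocyte genes 2 rose at 78-79 weeks, Cd9 and Rab27b (background 3.22%), although 15 of 15 lay above the young level, with a median of 0.84. Without the young male, the 78-week male or the 79-week female none of them rose, and without either 95-week mouse 7 did. Cavin2, a caveolar protein of platelets, stood at 2.23 and 2.81 CPM in the young and 62.2 and 42.4 in the old pair without passing (4.22 ± 0.93, edgeR adjusted p = 0.107). Of 17 erythroid genes 15 lay below the young level at 50 weeks and 13 at 78-79 weeks, with a median of -0.60 at both ages. At 95 weeks 15 lay above it, with a median of 0.69. Without the young female the medians were 0.33 at 50 weeks, 0.45 at 78-79 weeks and 1.39 at 95 weeks. The erythroid list summed to 725 CPM of all UMIs in the young male, the lowest of the 8 mice, and to 1412 in the young female. The single call at 50 and 78-79 weeks was a fall of Hba-a2, an alpha globin gene with a near-identical copy, which stood at 2.23 and 8.08 CPM in the young mice and at 1.26 CPM or less at those ages. It was named after its values were seen, and kept its call in 2 of the 8 fits that left out a mouse at each age. No erythroid gene was called at 95 weeks, but 8 rose there without the young female and 1 without the 95-week female. Basophil and mast cell genes had no call with all mice, with medians of -0.56, -0.42 and -0.86 at 50, 78-79 and 95 weeks. Leaving out a mouse gave medians from -0.85 to 0.23, -1.05 to 0.29 and -1.44 to -0.04 at these ages. The macrophage genes C1qa, C1qb and C1qc were at 15.6 and 9.84, 16.2 and 6.67, and 6.13 and 6.32 CPM in the young mice and all below 3 CPM at 78-79 weeks, where all 3 fell (edgeR adjusted p = 0.0403, 0.00857 and 0.0234) and kept the call in 3, 6 and 4 of the 8 fits that left out a mouse. Macrophage, endothelial and stromal genes together, 15 in all with 1 at 0 throughout, summed to 20.7 to 86.6 CPM over the 8 mice and were highest in the young pair. Their part in the other differences was not tested.

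Ighm, the immunoglobulin mu heavy chain, was the one named fall at 50 weeks. It was at 26.2 and 23.5 CPM in the young mice, 7.16 and 6.66 at 50 weeks, 12.2 and 24.0 at 78-79 weeks, and 7.56 and 7.77 at 95 weeks. It fell by 1.80 (SE 0.29, edgeR adjusted p = 0.0129) at 50 weeks and by 1.67 (SE 0.30, 0.00672) at 95 weeks, whereas at 78-79 weeks the female lay within the young range and the gene did not pass. At 50 weeks Socs3, a brake on cytokine signalling, rose from 2.79 and 3.16 CPM to 33.0 and 8.05 (edgeR adjusted p = 0.0481), and Rps6ka3, a growth factor-responsive kinase, by 1.004 ± 0.18 (0.0337). In the 8 fits that left out a mouse Rps6ka3 kept its call in 3 (0.66 to 1.49, lowest without the young male) and Socs3 in 4 (1.62 to 3.44, lowest without the young male). At 95 weeks the other named falls were the histone genes Hist1h1d (-1.19 ± 0.23) and Hist2h2ac (-1.03 ± 0.24), whose copies share sequence, Dcakd and Olfr1369-ps1. Leaving out a mouse kept the call of Hist2h2ac in 3 of 8 fits, of Dcakd in 4, of Hist1h1d in 5 and of Olfr1369-ps1 in 8.

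From 50 to 78-79 weeks the largest named rises were Gm10419, Clec1a, Btg2, Clu and Plscr2. Btg2, which restrains proliferation, went from 5.65 and 7.78 CPM to 21.1 and 19.7 (1.64 ± 0.27, edgeR adjusted p = 0.00408). The named falls were Dscc1, Nt5dc2, Ung, a uracil glycosylase of DNA repair, Trip13, a checkpoint ATPase, and Ffar2, a receptor for short-chain fatty acids. Of 20 chaperones 6 fell (background 3.96%), with Hsp90aa1 by 0.65 and Hspd1 by 0.73, and none of them without the 50-week male or the 78-week male. The count rested on the males: without the 50-week male 1 gene was called and without the 78-week male 9.

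Cell-to-cell variability within the Vwf-negative gate cells was measured as the ratio of variance to mean over cells thinned to 3000 UMIs, relative to its trend with the mean, for 2849 genes. Between 14 and 78-79 weeks 1 gene was called (0.0351%, limma), Serpina3g, a serine protease inhibitor. On the log2 scale its excess over the trend was 0.04 and -0.06 in the young mice, 0.11 and 0.32 at 50 weeks, 0.79 and 1.23 at 78-79 weeks, and 0.74 and 0.27 at 95 weeks. The difference was 1.02 ± 0.21 (limma, adjusted p = 0.00266). It fell below the threshold, at 0.54, when the thinning was drawn anew. No gene was called at 95 weeks, where 213 had an unadjusted p under 0.05 and 0% were called. The median ratio over genes was 1.02 to 1.04 in all 8 mice. Counting error alone gives a ratio of 1, so at this depth the measure left little room for a change in most genes. The few calls therefore do not show that variability was alike at all ages.

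Next, Vwf-negative gate cells were set against the Vwf-positive gate cells of the same mice, in 1 fit of 16 sums with the mouse as a block. Of 10895 genes tested, 927 were called (8.51%), 581 higher (5.33%) and 346 lower (3.18%) in the Vwf-negative cells. That split became 258 higher and 347 lower with DESeq2, and 212 and 7 with cells thinned before the gate. It was 395 and 129 without the cells that held proliferation genes, and 873 and 349 without a filter on low counts. The 6 gate genes are not counted. The young mice gave just 9 and 13 Vwf-positive cells, and leaving out the young male gave 519 calls, the young female 600, the 50-week male 596 and the 95-week male 1536. Each age had equal weight in this fit. The young Vwf-positive cells, which were not tested against background RNA, thus entered every difference between the kinds of cell. Median depths of the 2 kinds of cell in the 50, 78-79 and 95-week mice were 7719 to 12093 and 7182.5 to 11164 UMIs. In the young male they were 11928 and 9428 UMIs and in the young female 11168 and 15898, Vwf-negative cells first.

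Vwf-negative cells had more transcripts of multipotent progenitor markers and of several leukocyte genes. Cd48 was at 129, 97.2, 108, 102, 35.5, 54.4, 60.7 and 107 CPM in Vwf-negative cells (male and female at 14, 50, 78-79 and 95 weeks in turn) and at 19.4, 12.4, 39.6, 43.1, 6.40, 32.8, 19.96 and 20.2 CPM in Vwf-positive ones. It was higher in Vwf-negative cells in 8 of 8 mice, by 1.89 ± 0.16 on the log2 scale (edgeR, adjusted p = 6.51e-09). With all 3 gate genes required, Cd48 stood at 0.87 and was not called (edgeR adjusted p = 0.126). Of 10 multipotent progenitor markers 8 were higher (background 5.33%) and none lower (3.18%), including Cd34 by 1.54 ± 0.10 (edgeR, adjusted p = 4.15e-13). Satb1, a chromatin organizer of lymphoid cells, was higher by 1.91 ± 0.26, Cd52 by 1.93 ± 0.24 and Cd53, a tetraspanin of leukocytes, by 2.09 ± 0.21, each in 8 of 8 mice. Of 10 lymphoid priming genes 2 were higher and 1 lower, beside the same backgrounds of 5.33% and 3.18%, with Dntt, the terminal transferase of early lymphoid cells, higher by 2.14 ± 0.36.

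Some myeloid and basophil genes were higher in Vwf-negative cells. Cebpa, the transcription factor that starts granulocyte development, was higher by 1.84 ± 0.23 in 8 of 8 mice, and 7 of 17 myeloid genes were called, all in this direction (background 5.33%), with 10 without the 78-week male and 11 without the 79-week female. Mpo was not among them (1.497 ± 0.32, edgeR adjusted p = 0.0752). Of 8 basophil and mast cell genes 5 were higher (background 5.33%), among them Hdc, the enzyme that makes histamine, by 2.97 ± 0.54. Ms4a2, a chain of the IgE receptor, was called too, but was found in 0.302% to 2.73% of thinned Vwf-negative cells and in 0.365% to 2.75% of thinned erythroid precursors. A share at that level cannot by itself be told from background RNA. Bex6, Rnase6, Tespa1 and BC035044 completed the 10 largest named differences in this direction, of 1.89 to 2.36. Without the cells that held proliferation genes, 9 myeloid and 2 basophil and mast cell genes were called in either direction. Of these 4 and 1 were also called with all cells. With all 3 gate genes required, 5 and 1 were called, of which 2 and 0 were also called with the wider gate. The backgrounds of genes higher and lower were 3.97% and 1.3%, then 0.914% and 0.39%.

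HSC markers and ageing genes were lower in Vwf-negative cells. Slamf1 was at 1.68, 2.12, 6.43, 5.02, 15.0, 9.69, 14.3 and 5.53 CPM in them and at 25.9, 4.14, 40.7, 11.4, 40.1, 35.4, 34.3 and 51.3 CPM in Vwf-positive cells, in the same order of mice. All 8 mice had the lower value in Vwf-negative cells (-2.09 ± 0.43, edgeR adjusted p = 0.00508). Of 20 HSC markers 12 were lower (background 3.18%) and none higher (background 5.33%), with a median of -0.72 beside 0.04 over all genes. Mllt3 differed by -1.26 ± 0.14 on the log2 scale, Fgd5 by -1.48 ± 0.25 and Hoxb5 by -1.72 ± 0.34. With all 3 gate genes required, Hoxb5 stood at 0.17 (edgeR adjusted p = 0.964), and 5 HSC markers and 6 ageing genes were called. The backgrounds there were 0.914% higher and 0.39% lower. Of these markers and ageing genes, 4 and 3 were also called with the wider gate. All 3 genes were detected in 46 of 77 and 27 of 51 Vwf-positive cells at 50 weeks, male first. The counts were 101 of 186 and 55 of 93 at 78-79 weeks, and 78 of 168 and 28 of 70 at 95 weeks. In the young mice they were 8 of 9 and 4 of 13. The shares in Vwf-negative cells are given above, and the part of this make-up was not tested. Of 32 ageing genes all were lower, and 10 were called (background 3.18%). Leaving out a mouse gave 2 to 22 calls, with 2 without the young female, 22 without the 95-week male and 21 without the 95-week female.

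Imprinted genes, expressed from a single parental copy, differed in the same way. Meg3, a long non-coding RNA of the Dlk1 locus, was lower in 8 of 8 mice (-2.08 ± 0.28, edgeR adjusted p = 0.0104), and 7 of 12 imprinted genes were lower (background 3.18%) with none higher, Ndn by -1.42 ± 0.21 and Cdkn1c by -1.19 ± 0.16. Cdkn1c turned to 1.08 when cells were thinned before the gate. The other named genes on the lower side were Chil5, Tm4sf1, Jam2, Ehd3, Cpne8 and Fgd5. Of 16 platelet genes 6 were lower (background 3.18%), such as Itgb3, the integrin beta 3 chain (-1.63 ± 0.37, but -0.01 without the young female), and Gp9, a subunit of the von Willebrand factor receptor (-0.95 ± 0.21), while Plek, a signalling protein of platelets and leukocytes, was higher (0.91 ± 0.18). Leaving out a mouse gave 2 to 9 lower platelet genes, with 2 without the young female and 9 without the 95-week male, and 4 to 7 lower imprinted genes, with 4 without the young male or the 78-week male.

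Of 24 S phase genes 11 were higher in Vwf-negative cells (background 5.33%) and none lower, with a median of 0.56, and leaving out a mouse gave 4 to 21, with 4 without either young mouse, 18 without the 78-week male and 21 without the 95-week male. Cdk6, the kinase that takes HSC out of quiescence, was higher by 0.76 ± 0.08 in 8 of 8 mice. Without the cells that held proliferation genes, 12 of 22 S phase genes and 9 of 10 multipotent progenitor markers were higher (background 3.97%) and 11 of 20 HSC markers lower (background 1.3%). Of these 10, 8 and 9 were also called with all cells. With all 3 gate genes required, 107 genes were called, 0.914% of those tested as higher and 0.39% as lower. Among them were 8 of the 10 multipotent progenitor markers and 5 of 19 HSC markers, of which 7 and 4 were also called with the wider gate, and none of 23 S phase genes (median 0.33). Of 30 actin cytoskeleton genes 12 were higher (background 5.33%) and none lower, such as Tmsb10, a thymosin that binds actin monomers (0.86 ± 0.08), Coro1a (0.62 ± 0.08) and Arhgdib (0.65 ± 0.07).

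**Figure D3:**
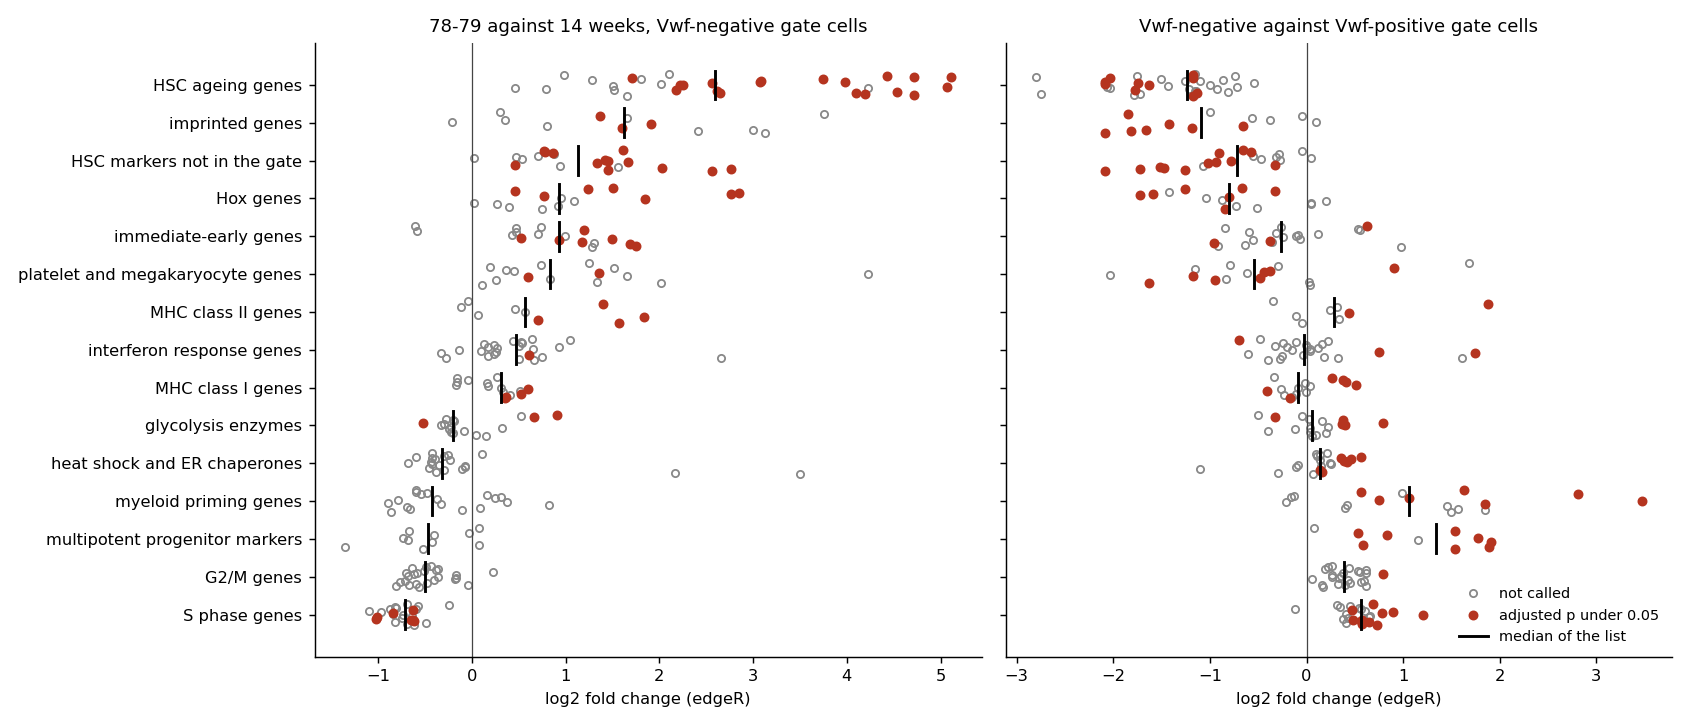
Each circle is a gene, placed by its log2 fold change (horizontal axis) in 15 gene lists (rows), for 78-79 against 14 weeks on the left and Vwf-negative against Vwf-positive gate cells on the right; filled circles passed an adjusted p under 0.05 in edgeR and bars are list medians. The HSC ageing genes have a median of 2.59 on the left and -1.24 on the right, and the S phase genes -0.72 and 0.56.

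**Figure D4:**
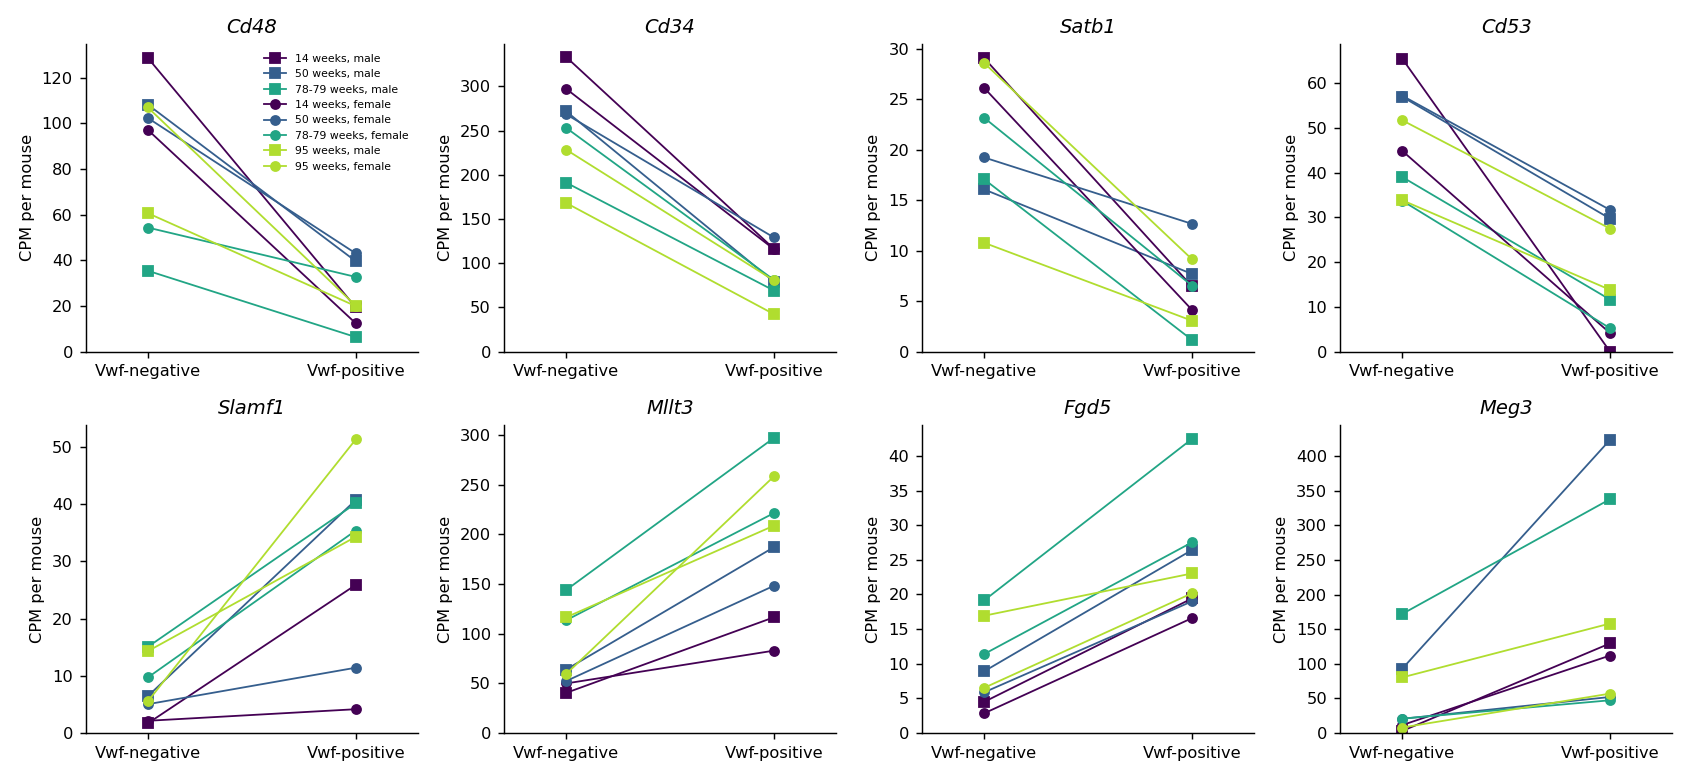
CPM per mouse of 8 genes in Vwf-negative and Vwf-positive gate cells, with a line for each of the 8 mice, coloured by age, and squares for males and circles for females. Cd48, Cd34, Satb1 and Cd53 are higher in the Vwf-negative cells of all 8 mice, and Slamf1, Mllt3, Fgd5 and Meg3 are lower in all 8.

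Whether age changed the 2 kinds of cell differently was tested by an interaction, the mean of 78-79 and 95 weeks minus 14 weeks in Vwf-negative cells less the same in Vwf-positive cells. A single gene of 10895 was called (0.00918%), Pkm, the glycolytic enzyme pyruvate kinase (-1.38 ± 0.22, edgeR adjusted p = 0.00354). It stood at 454 and 408 CPM in young Vwf-negative cells and 149 and 174 in young Vwf-positive ones, and at 350 to 400 and 337 to 412 in the old and very old mice. The values that stood apart were those of the young Vwf-positive cells, of which there were 9 and 13. These cells also differed in other genes. The erythroid list summed to 2853 and 2568 CPM of all UMIs in them against 725 and 1412 in young Vwf-negative cells, and Car1, the carbonic anhydrase of erythroid precursors, was at 1351 and 444 against 88.3 and 263. At least 2 of the 6 proliferation genes were detected in 22.2% and 69.2% of them. In the interaction none of the erythroid or G2/M genes was called, but 15 of 17 erythroid genes and 24 of 24 G2/M genes lay above 0, with medians of 1.39 and 1.13 beside -0.03 over all genes. Their part in the result for Pkm was not tested. Without the young male no gene was called and without the 95-week male 107 were. For Nupr1, Clca3a1 and the other ageing genes no difference between the 2 kinds of cell in the change with age was called, which with so few young Vwf-positive cells does not show that they changed alike.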

How the data were processed

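UMI counts per gene and cell were measured by 10x 3′ single-cell RNA sequencing in 8 mice. Reads had been aligned and counted by the authors in Cell Ranger (the file headers name version 6.0.0, the study's methods a later one) who deposited raw counts for barcodes taken as cells, with no normalization. The labels give mm10. Of the gene identifiers, 32158 matched GENCODE release M21 of that build, the source of coordinates.

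Counts were summed per mouse and tested with edgeR 4.0.16 (TMM, filterByExpr, quasi-likelihood, age and sex, or mouse as block between the 2 kinds of gate cell). Variability was tested with limma 3.58.1, DESeq2 1.42.0 was an alternative, and scripts were tested on simulated data. No doublets were removed. The members and the gene lists were chosen with earlier results of these data known. Named genes were called genes at 20 CPM or more in either group without overlap between mice (between the 2 kinds of cell, with the same sign in 8 mice), the 10 or 5 with the largest changes each way, plus examples from the lists; some genes are not reported here. With 1 male and 1 female per age, the sex term of the age fits takes out the mean difference between the sexes. Their p-values therefore measure how that difference varied between ages, and not the whole spread between the 2 mice of an age. The p-values between the 2 kinds of gate cell measure how their difference varied between the 2 mice of an age.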

Additional observations from a re-analysis of the deposited data

Results flagged for a closer look

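The change of Pkm with age differed between Vwf-negative and Vwf-positive gate cells by a test of the difference itself (log2 difference of differences -1.3802, SE 0.22, edgeR adjusted p = 0.00354). The 9 and 13 Vwf-positive cells of the young male and female held 149 and 174 CPM against 454 and 408 CPM in young Vwf-negative cells. At 50 weeks the Vwf-positive values were 558 and 326 CPM against 520 and 397. The call was lost without the young male. In the same young Vwf-positive cells the erythroid list summed to 2853 and 2568 CPM of all UMIs, against 725 and 1412 in young Vwf-negative cells; its part in the result was not tested.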

How the results depend on the processing

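With 2 mice per age and 119 to 428 member cells per mouse, small changes and low genes could not be resolved, and counts of calls moved with most settings; the causes were not tested. For genes called at 50, 78-79 and 95 weeks against 14 weeks and at 78-79 against 50 weeks (16, 476, 150 and 870), the counts were 1, 63, 10 and 51 without the sex term, 134, 1011, 441 and 1450 without a filter on low counts, 0, 14, 14 and 78 with all 3 gate genes required (683 genes had an unadjusted edgeR p under 0.05 where none was called), and 6, 211, 82 and 25 with 119 cells per mouse. For the later 3 of these comparisons DESeq2 gave 148, 65 and 236 and cells of 2000 UMIs and under 5% mitochondrial UMIs 22, 1 and 0. Thinning cells before the gate gave 149 at 78-79 against 14 weeks and 89 against 50 weeks. At 50 weeks a minimum of 10 CPM gave 8 and the gate without Procr 10. In the alternatives chosen after seeing the data, leaving out cells with proliferation genes gave 36, 131 and 152 (50 and 78-79 against 14 weeks, 78-79 against 50 weeks), and leaving out deep and lineage-high cells 755 and 287 (78-79 and 95 against 14 weeks).

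Between Vwf-negative and Vwf-positive cells (927), DESeq2 gave 605, thinning before the gate 219, all 3 gate genes 107 and no proliferating cells 524. The interaction (1) went to 7 with DESeq2, 17 without the filter, 85 with thinning before the gate, 6 in cells of 6000 UMIs or more, 16 without proliferating cells and 26 without deep and lineage-high cells. Variability at 78-79 weeks (1) went to 0 when thinned to 2000 UMIs, 0 with another draw and 2 without the trend, and at 95 weeks (0) to 1 on log-normalized values and 1 at a mean of 0.3 UMI or more.

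Leaving out each mouse gave 5 to 67, 47 to 595, 19 to 280 and 1 to 945 calls for the 4 age comparisons in the order above, 519 to 1536 between the kinds of cell, 0 to 107 for the interaction, and 0 to 2 and 0 to 1 for variability at 78-79 and 95 weeks. With the filter applied anew, these fits tested 11373 to 11581 genes for age and 11462 to 11569 between the kinds of cell. The lowest counts at 50 weeks were without the 50-week male (5) and the highest without the young female (67). At 95 weeks they were 19 without the young male, 41 without the 95-week male, 235 without the 95-week female and 280 without the young female.

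Over the genes named for the largest changes, 919 alternative values kept direction and call, 319 lost the call and 5 changed sign: Nt5dc2 at 78-79 weeks without proliferating cells (0.28), Hist2h2ac at 95 weeks with all 3 gate genes (0.18), and with thinning before the gate Dcakd at 95 weeks (0.0644) and Tm4sf1 and Ehd3 between the kinds of cell (0.0019 and 0.0352). Pkm lost its call with all 3 gate genes and with thinning before the gate (-1.32 and -0.71). Among the list genes the text gives as examples, the sign also turned for Cd74 at 50 and 78-79 weeks and Hoxb5 between the kinds of cell with all 3 gate genes (-0.20, -0.01 and 0.17) and for Cdkn1c between the kinds of cell with thinning before the gate (1.08). Of 79 calls of list genes at 78-79 against 14 weeks, 17 were kept without the young male, 22 without the 78-week male, 49 without the young female and 52 without the 79-week female. Of 83 at 78-79 against 50 weeks, 0 were kept without the 50-week male and 2 without the 78-week male, and of 39 at 95 weeks 11 without the young male and 14 without the 95-week male. Planned rules for cycling cells and doublets left 0 to 33 members per mouse and were not run. No paired analysis was possible because no label ties mice of different ages to each other; replicate numbers follow sex, so that the sex term of the age fits is also a block by number, and the counts without it are given above. The comparison of the kinds of cell had the mouse as block.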
